A study of Bos taurus with 2 samples.

Results

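Myostatin (MSTN), the growth hormone receptor (GHR) and insulin-like growth factor 1 (IGF1) are 3 genes known to act on the growth of skeletal muscle. Their transcripts were followed in longissimus muscle of Qinchuan beef cattle, with 3 genes described out of 16174 that had a read at either stage. The genes were chosen by their Ensembl identifiers, ENSBTAG00000011808 for MSTN, ENSBTAG00000001335 for GHR and ENSBTAG00000011082 for IGF1, a rule that uses no measured value, though the set was drawn up with earlier results of these data known. A minimum length of the gene model was set for MSTN (1100 nt) and for GHR (1800 nt), and the listed models of 2768 nt and 2026 nt passed it. The IGF1 model measured 1051 nt. The symbols come with this definition of the set. The deposited tables list identifiers only, and the reference gene table used here pairs 0 of its 37063 genes with an Ensembl identifier, so the symbols could not be checked against the data.

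The embryonic group (Emb135) was muscle of embryos at 135 days after insemination, and the adult group (30M) was muscle of animals at 30 months after birth. RNA of 3 animals was pooled at each stage and made into 1 library, so animals cannot be told apart and there is no replicate. Both groups were of 1 breed, with no treatment or genetic change given in the labels. The Emb135 library held 17736812 uniquely assigned reads over 15522 genes and the 30M library 19970007 over 14853 genes. Marker genes of muscle, fibroblasts, fat or blood, and the other genes of the growth pathways, were not analysed here for want of symbols, so the labelled tissue was not checked.

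Myostatin is a secreted protein of the TGF-beta family made mainly by skeletal muscle. It acts through activin type II receptors and SMAD proteins and restrains muscle growth, and cattle that lack its function are double-muscled. The growth hormone receptor sits in the cell membrane and signals through the kinase JAK2 and STAT5 proteins, and a main target of that signal is IGF1. IGF1 is secreted by the liver into the blood and also made within muscle, where it acts through its own receptor and the AKT and mTOR kinases to favour protein synthesis and growth.

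The 3 transcripts differed in direction and size between the stages. MSTN stood above most detected genes in the embryonic library and left few reads in the adult one. IGF1 was about 4-fold lower in the adult library (4.15-fold). GHR was 1.46-fold higher there on the deposited scale, less than the 2-fold used here to call a difference. Levels are given as RPKM, the number of reads per kilobase of gene model relative to the total of the library, which allows genes of different length to be set side by side. All intervals are 95% intervals of read counting, exact Poisson for a level and Clopper-Pearson for a ratio. They cover counting error only. They do not cover differences between animals or between library preparations, and PCR copies are not independent molecules.

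MSTN, the inhibitor of the set, had 1529 reads in Emb135 and 14 in 30M. These correspond to an RPKM of 31.1 in Emb135 (interval 29.6 to 32.7) and of 0.253 in 30M (0.138 to 0.425). At its embryonic share of reads, 1722 reads would have been counted in the adult library. The level in Emb135 was 123 times that in 30M (interval 73.1 to 225), a log2 ratio (30M over Emb135) of -6.94 with a counting interval of -7.82 to -6.19, and the intervals of the levels were far apart. In Emb135 the transcript was above 84.4% of the detected genes, and in 30M it was above 12.3% of them. The adult value rests on few reads: 1 read was worth an RPKM of 0.0181 there.

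IGF1, the growth-promoting ligand, had 243 reads in Emb135 and 66 in 30M. Its RPKM was 13.0 in Emb135 (interval 11.4 to 14.8) and 3.14 in 30M (2.43 to 4.0). The log2 ratio was -2.05 (interval -2.47 to -1.65). The embryonic level was above the median of the detected genes of its library (6.22), and the adult level was below the median of its own (4.68). IGF1 therefore lay above 67.7% of the detected genes in Emb135 and above 41.2% in 30M. At its embryonic share, 274 reads would have been counted in 30M.

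GHR, the receptor, had 650 reads in Emb135 and 1069 in 30M. Its RPKM was 18.1 in Emb135 (interval 16.7 to 19.5) and 26.4 in 30M (24.9 to 28.1), so the counting intervals did not overlap. The log2 ratio was 0.55 (interval 0.40 to 0.69). It was the only gene of the 3 with a higher value in the adult library. The receptor moved from above 74.9% of the detected genes in Emb135 to above 84.9% in 30M. Counting error does not cover the difference, but variation among animals was not measured.

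**Figure D1:**
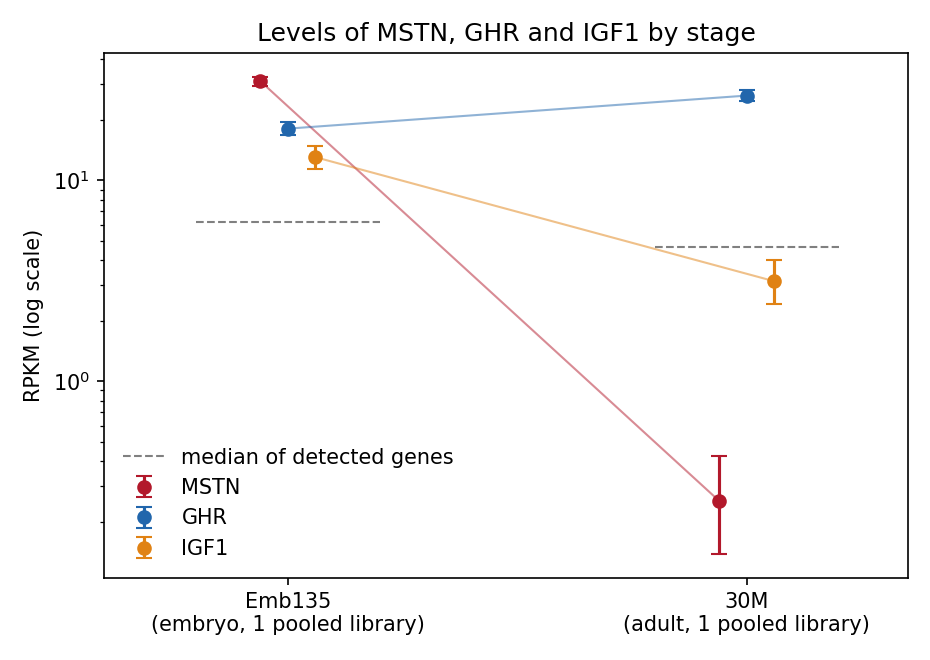
RPKM of MSTN, GHR and IGF1 (log scale) in the 1 pooled library of each stage, with exact 95% Poisson intervals of counting as bars and the median of the detected genes of each library as a dashed line; thin lines join the values of a gene. MSTN goes from the highest of the 3 in Emb135 (31.1) to the lowest in 30M (0.253), while GHR is the highest in 30M (26.4).

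The order of the 3 levels was not the same at the 2 stages. In Emb135 it was MSTN, GHR, IGF1, with MSTN at 1.72 times the GHR level per length (interval 1.57 to 1.89) and GHR at 1.39 times the IGF1 level (1.20 to 1.61). In 30M it was GHR, IGF1, MSTN, with GHR at 8.40 times IGF1 (6.55 to 10.9) and IGF1 at 12.4 times MSTN (6.90 to 23.9). No neighbours in either order had a ratio whose counting interval included 1. Per length of the whole gene model, the receptor transcript thus stood near that of the ligand in the embryo and well above it in the adult.

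Ratios between genes of 1 library do not depend on how the libraries are scaled to each other. Their change between stages does not depend on gene length where the same stretch of a gene is read at both. For IGF1 the covered part of the 1051 nt model was 848 nt in Emb135 and 961 nt in 30M. The effect of this on its ratios was not tested. The GHR to IGF1 ratio was 6.06 times as high in 30M as in Emb135, with an exact conditional interval of 4.51 to 8.21. The MSTN to IGF1 ratio was 29.7 times as high in Emb135 as in 30M (16.1 to 57.9). For MSTN to GHR the factor was 180 (105 to 332), the largest of the 3 pairs compared. The stage ratios of inhibitor, receptor and ligand were thus apart by more than counting error in every pair. How often other pairs of genes are apart by more than counting error was not analysed here, so this is given as a description.

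A difference was called by a rule of size and counting error, since 1 library a stage permits no test between stages: at least 2-fold between the RPKM values, 1 or more RPKM at the stage with the higher value, and a ratio whose counting interval left out equality. On the deposited scale, 36.1% of the 12763 genes at that level were called lower in 30M and 14.2% higher. MSTN and IGF1 were called lower and GHR neither. A call of lower was thus common among all genes, and 2 such calls among 3 chosen genes are given as a description. Of all these genes, 212 had a lower ratio than MSTN, which is 1.66% of them, and 14.4% had a lower ratio than IGF1. For GHR, 20.4% had a higher ratio. Genes with 0 reads at 1 stage were ranked at the ends, whatever their level at the other stage. Thus 175 of the 212 genes below MSTN had 0 reads in 30M, and these 175 are also in the share for IGF1. The share for GHR holds 80 genes with 0 reads in Emb135. Among the 1706 genes with at least 1529 reads in Emb135, 26 had a ratio at or below that of MSTN, MSTN included. By read numbers, which are not adjusted for length, 13 had 14 or fewer reads in 30M, MSTN included. The limits are the values of MSTN itself, so these counts describe its place and test nothing.

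**Figure D2:**
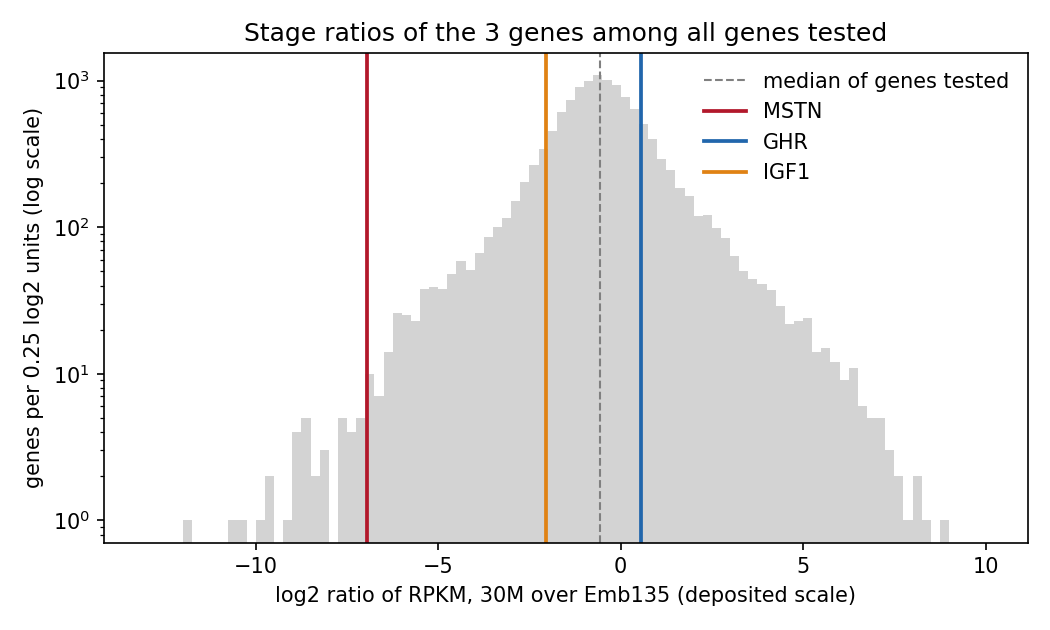
Number of genes (log scale) by log2 ratio of RPKM, 30M over Emb135, for the 12763 genes that reached an RPKM of 1, without 255 genes that had 0 reads at 1 stage; coloured lines mark the 3 genes and the dashed line the median of all genes tested (-0.58). MSTN (-6.94) lies in the far left tail, IGF1 (-2.05) on the left flank and GHR (0.55) to the right of the median.

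The call on GHR depended on the scaling. RPKM is relative to all reads of a library, and the median log2 ratio of the 12763 genes was -0.58. When the 30M values were multiplied by 1.40, which sets the median ratio of genes expressed at both stages to equality, GHR stood at 36.9 in 30M, 2.04 times its Emb135 level (interval 1.85 to 2.25), and was called higher. On that scale 21.6% of 12932 genes were called higher and 23.3% lower, so that 51.9% of all calls were lower ones, where the deposited scale gave 71.8%. The trimmed mean of log ratios also gave a call, at a log2 ratio of 1.08 (interval 0.93 to 1.22). Scaling by the 75th percentile or by totals without the leading genes gave 0.93 each (0.79 to 1.07 for both), with no call. TPM gave 0.66, also with no call. Apart from TPM, the counting interval under each of these rescalings included 2-fold. GHR was higher in 30M under every scaling run, and its size lay on either side of 2-fold.

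MSTN and IGF1 were called lower under every scaling run. After rescaling by the median ratio the MSTN level in Emb135 was 88.1 times that in 30M, and the IGF1 level 2.97 times. In whole muscle, a change in the number of cells that express a gene and a change in its RNA per cell cannot be told apart, for the lower values of MSTN and IGF1 and for the higher value of GHR alike.

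**Figure D3:**
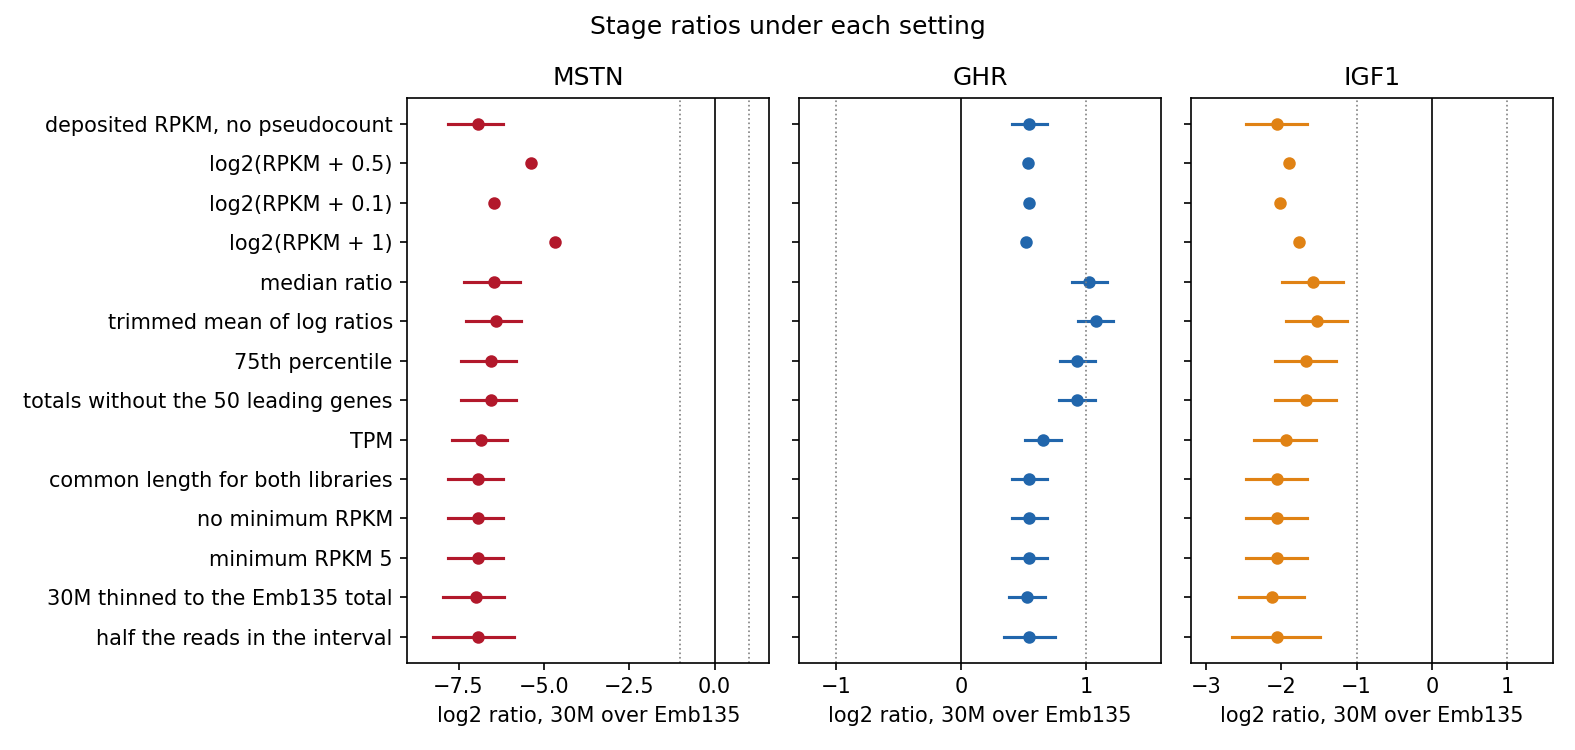
Log2 ratio of 30M over Emb135 for each gene under each setting, with its exact 95% counting interval as a line where no pseudocount is added; dotted lines mark 2-fold, and the horizontal ranges differ between panels. MSTN and IGF1 stay to the left of the dotted line at -1 under all settings, while GHR passes 1 with the median ratio (1.03) and the trimmed mean (1.08) only.

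Read numbers at low counts were even more often than odd. In Emb135, 621 genes had 2 reads and 312 had 1, and 301 had 4 reads while 167 had 3. In 30M, 607 genes had 2 reads and 265 had 1. Genes with 2 reads had a median of 180 nt covered in both libraries, against 90 nt for genes with 1. A count of each fragment by both of its ends was not tested for. With every read number divided by 2, the intervals of the log2 ratio widened to -8.26 to -5.89 for MSTN, to -2.65 to -1.48 for IGF1 and to 0.34 to 0.75 for GHR. The change between stages of the within-library ratios then ran from 3.95 to 9.36 for GHR to IGF1, from 12.5 to 81.1 for MSTN to IGF1 and from 84.8 to 452 for MSTN to GHR. No call on the 3 genes changed.

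The authors' coverage, read here as the percentage of the gene model under at least 1 read, showed how the reads of each gene were spread. In 30M the 14 MSTN reads covered 32.7% of the model, or 904 nt. At 90 nt a read, at least 11 reads are needed to cover that much, so the adult reads were not stacked at 1 place. Even placement of 14 reads would cover 37.0%. In Emb135, where the mean depth of MSTN was 49.7 reads per base, coverage was 89.9% and 280 nt of the model had no read. GHR was covered over 95.1% in Emb135 and 96.7% in 30M, next to medians of 97.2% and 96.7% for genes deep enough to expect at least 99% under even placement.

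IGF1 was covered less where it had more reads. Its 243 reads in Emb135 covered 80.7% of the model and left 203 nt without a read, at a mean depth of 20.8 reads per base. Its 66 reads in 30M, at a mean depth of 5.65, covered 91.4% and left 90 nt. The adult library thus covered 113 nt more with fewer reads, a difference of 10.8 percentage points. In Emb135, 6.09% of the 10136 genes deep enough had a lower coverage than IGF1, and in 30M 23.0% of 9385. Among 8534 genes deep enough in both libraries, 59 (0.691%) had coverage lower by at least 10 points in the library with as many or more reads, and IGF1 was among them. That threshold was chosen with the values known. The tables give no positions along the gene, so which stretch of IGF1 was unread was not analysed here.

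**Figure D4:**
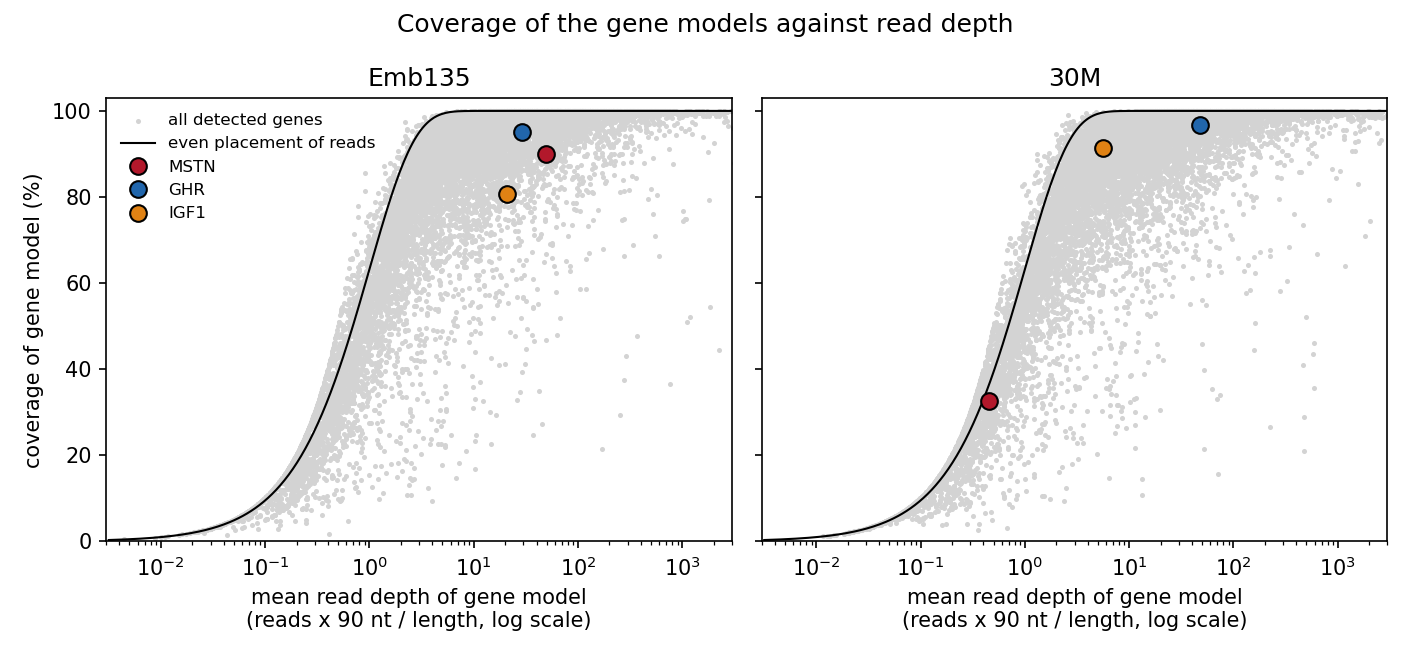
Coverage of each gene model (%) against its mean read depth (reads x 90 nt over length, log scale) in each library, for all detected genes (grey) and the 3 genes, with the curve for evenly placed reads in black. IGF1 lies lower in Emb135 (80.7%) than in 30M (91.4%) although its depth is greater there, and MSTN in 30M (32.7%) lies next to the curve.

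The kit did not mark strand in the described protocol, so reads of overlapping genes could be mixed. In the ARS-UCD2.0 reference table, which may not be the build of the files, GHR overlaps the long non-coding gene LOC112443004 and IGF1 overlaps the long non-coding gene LOC112446717. No other gene overlaps MSTN there. The part of these neighbours in the GHR and IGF1 values was not tested.

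For each of the 3 genes, the gene with the most similar pair of levels was sought among 12291 others with at least 10 reads in both libraries, by Euclidean distance of the log2 RPKM values over the 2 libraries. The nearest to MSTN was ENSBTAG00000016158, at a distance of 0.33, with 29.8 RPKM from 3996 embryonic reads and 0.318 RPKM from 48 adult reads. The nearest to GHR was ENSBTAG00000046670, at 0.042, with 18.6 and 26.5. The nearest to IGF1 was ENSBTAG00000004965, at 0.053, with 12.6 and 3.15. At the adult level of MSTN the minimum of 10 reads leaves out short genes, so nearer genes may have been missed there. Within a distance of 0.5 lay 2 genes for MSTN, 273 for GHR and 251 for IGF1, so the last 2 had many genes near them. With 2 libraries, likeness of this kind says only that the levels are close.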

How the data were processed

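Polyadenylated RNA was sequenced in 2 libraries, each from a pool of 3 animals, per the labels' protocols. The authors deposited, per the file headers, the count of uniquely assigned reads per gene (not normalized), the length of the gene model, its coverage signal in percent, and the RPKM computed from count, length and library total. For the aligner, counter, build and annotation, the sources used here name none. Unique counting can lower genes with near-identical copies.

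Rows of the 3 identifiers were taken from both tables, and ratios, intervals, calls and scalings were computed over all genes with Python 3.11.15, numpy 2.4.6, scipy 1.17.1 and pandas 2.3.3. No pseudocount was used for the main ratios. Even coverage was computed from 90 nt reads, the length covered in genes with 1 read. The code was tested on simulated data. The genes named with values were the 3 members and, for each, the nearest gene by level; genes overlapping the members in the reference table are named without values. The members and lists were chosen with earlier results of these data known. The planned lists of pathway genes and cell type markers needed symbols and were not analysed here.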

Additional observations from a re-analysis of the deposited data

How the results depend on the processing

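Each ratio was computed under 13 alternatives, 4 of which (common length, the other minimum RPKM settings, read numbers divided by 2) bear on the call or the interval and leave these ratios as they are by construction. The log2 ratio of MSTN ranged from -6.99 to -4.68 and that of IGF1 from -2.12 to -1.52, and both were called lower under the 9 that move the ratio. GHR ranged from 0.52 to 1.08 and was called higher under 2 of these 9 and neither under 7. Values outside the counting interval were, for MSTN, -5.39 and -4.68 with pseudocounts of 0.5 and 1, which shrink low values by construction. For GHR they were 1.03 (median ratio), 1.08 (trimmed mean of log ratios), 0.93 (75th percentile) and 0.93 (totals without the 50 leading genes). For IGF1 the median ratio gave -1.57 and the trimmed mean -1.52. Over all genes, 1806 were called higher and 4606 lower in 30M. These counts became 2791 and 3016 by the median ratio, 2903 and 2880 by the trimmed mean, and 922 and 1920 at 4-fold. The alternative with read numbers divided by 2 was chosen after seeing the data. The level ratios of MSTN and of GHR to IGF1 were the same in TPM, by construction. Depth limits MSTN in 30M most, with 14 reads. No paired analysis was possible because a stage was a single pooled library, which also leaves no replicate to omit.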
